A study of Mus musculus with 12 samples.

Results

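Interferon-stimulated genes and RNA sensors were followed in primary mouse embryonic fibroblasts (MEFs) that carry either wild-type E2F1 or a form of E2F1 that cannot be acetylated at its known sites. The genes were a list of 39 symbols given by name, put together with earlier results of these data known. All 39 were found among the 37991 gene identifiers of the count files, and all 39 were among the 15327 genes with enough counts to be tested. By role they were 10 sensors of foreign RNA and their enzymes, 5 transcription factors, 4 genes of the ISG15 modifier pathway, 10 antiviral effectors, 4 genes of the PARP and DTX3L group, and 6 other interferon-stimulated genes.

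The RNA-seq samples fell into 4 groups of 3, MEFs with wild-type E2f1 (WT) or homozygous for E2f1 3KR (3KR), each untreated or exposed to neocarzinostatin (NCS), a drug that breaks DNA, at 250 ng/ml for 3 h. All cells were of strain FVB, came from embryos 13.5 days old, were used at passage 3, and grew in 5% O2. In 3KR mice 3 lysines of E2F1 are replaced by arginine in both alleles of the endogenous gene, and the line descends from 1 founder made with zinc finger nucleases. The labels do not say whether the 3 samples of a group were separate embryos, so p-values measure the spread between these samples, which may be technical.

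Interferons are secreted proteins that warn cells of infection. Cytoplasmic sensors of viral RNA such as RIG-I and MDA5 signal through the adaptor MAVS to the transcription factors IRF3 and IRF7, which switch on the genes of type I interferons. Interferon then binds its receptor, activates the kinases JAK1 and TYK2, and leads to assembly of ISGF3, a complex with STAT2 and IRF9 in it that binds the interferon-stimulated response element (ISRE) in front of interferon-stimulated genes. Many of these genes code for the sensors and factors themselves, so the pathway feeds back on its own parts, and fibroblasts are a classic cell type in which it was worked out.

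Between 33203757 and 45279321 reads per library were counted on genes, so that 3 counts, taken as the lowest level of use, correspond to 0.0663 to 0.0904 CPM, counts scaled to a library total of 1000000. WT replicate 3 stood apart in both treatments, since its counts differed from those of the other 2 WT libraries of the same treatment with a mean chi-square between 7.34 and 9.14 over genes, while other pairs of libraries from 1 group stayed at or below 2.29. Xist, the RNA of the inactive X chromosome, was at 32.3 to 62.5 normalized counts in WT libraries and 30590.1 to 35635 in 3KR libraries, while Y-linked Ddx3y was at 5370.3 to 5822 in WT and 7.0 to 16.2 in 3KR, so genotype and sex of the embryos cannot be told apart in any comparison of the 2 genotypes. The mRNA of E2f1 itself did not pass the test between untreated 3KR and WT (log2 fold change -0.03 ± 0.06 SE, FDR 0.71). The 10 fibroblast markers summed to 57901 to 64207 CPM with none at 0. The 20 macrophage markers summed to 158 to 186 CPM in the 6 WT libraries, 324 to 329 CPM in untreated 3KR and 287 to 293 CPM in NCS-treated 3KR, with none at 0 in any library. Markers of lymphoid cells and of plasmacytoid dendritic cells summed to at most 0.351 and 0.146 CPM. In bulk RNA, a change in the number of cells of a type and a change in RNA per cell cannot be told apart.

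Without treatment, 36 of the 39 genes were higher in 3KR than in WT MEFs and 0 were lower, by the quasi-likelihood test of edgeR at a false discovery rate (FDR) of at most 0.05. Among all 15327 tested genes 22.1% were higher and 23.6% were lower in the same comparison. The median log2 fold change over the 39 genes was 1.19, against -0.00 over all tested genes. In 36 of 39 genes every 3KR library lay above every WT library, where 27.0% of all tested genes did so. Irf3, Cmpk2 and Trim30a did not pass the test, and their groups overlapped. Oas1a, Oas2, Oas3 and Mx1 reached the level needed for testing only through the 3KR libraries and so had to differ. Of the other 35 genes, 32 were higher, their median was 0.99, and the single values ran from 0.03 for Irf3 to 2.97 for Oasl2. Over the same libraries 18 of the 20 macrophage markers were higher in 3KR, with a median log2 fold change of 1.14. Csf1r, the macrophage growth factor receptor, stood at 1.30, and the leukocyte actin-bundling gene Lcp1 at 1.49. Of the 10 fibroblast markers 8 were higher and 2 lower in untreated 3KR, with a median of 0.27, among them Pdgfra, a growth factor receptor, at 1.67 and the matrix gene Lum at 1.34. The part of the makeup of the cultures in the levels of the interferon-stimulated genes was not tested.

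**Figure D1:**
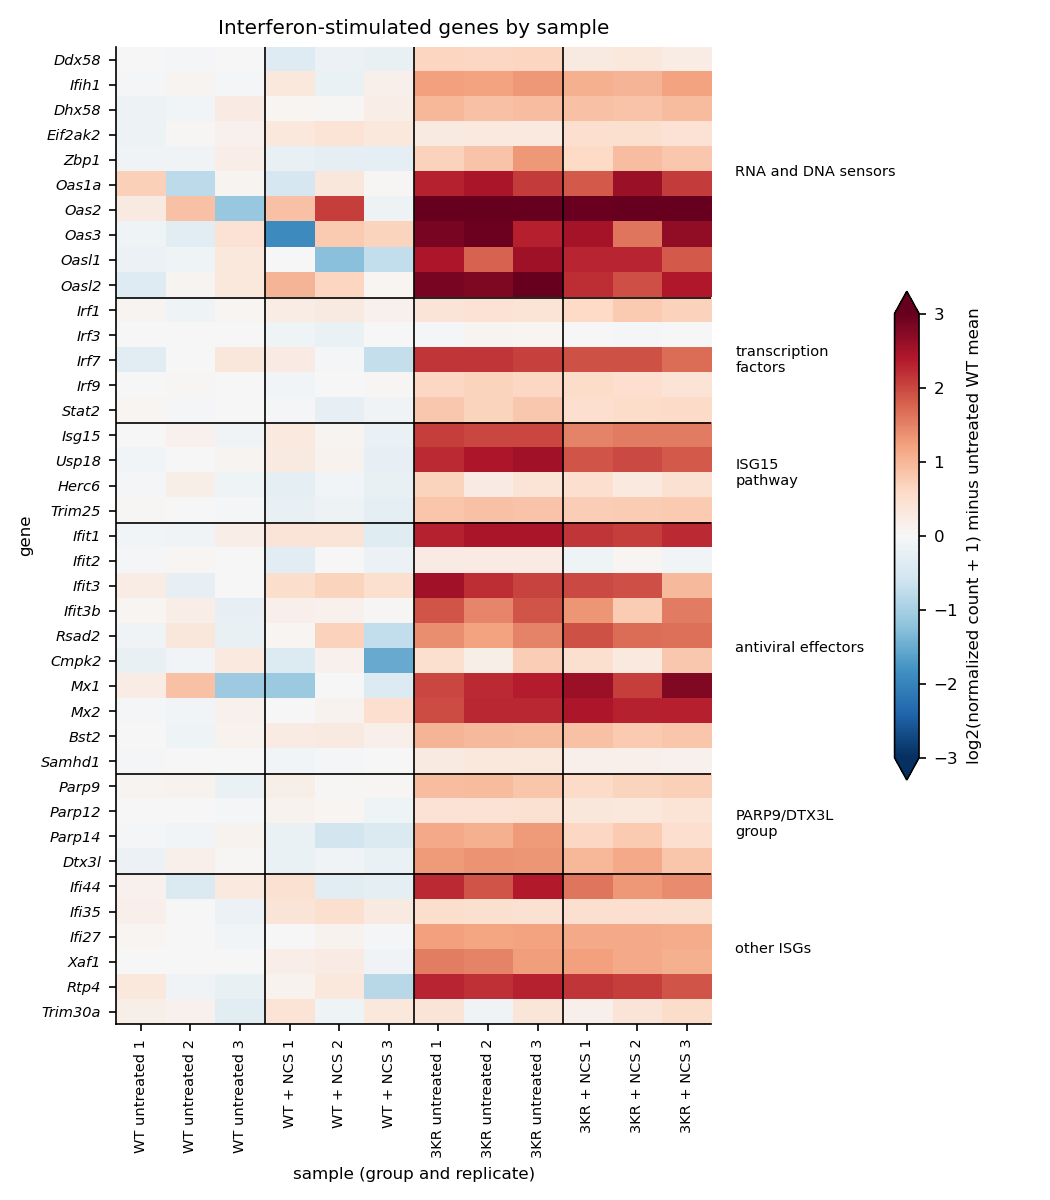
Level of each of the 39 genes (rows, by role) in each of the 12 libraries (columns, 4 groups of 3). Colour is log2(normalized count + 1) minus the mean of the 3 untreated WT libraries, with the scale ending at 3 in either direction. Both 3KR groups are on the higher side for most genes, Irf3 and Trim30a change little across the columns, and Oas2 runs past the end of the scale.

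The members' median level per library shows how the 12 libraries were spread. As log2(normalized count + 1) relative to the untreated WT mean, it was between -0.01 and 0.01 in the untreated WT libraries and between -0.11 and 0.07 after NCS, with WT replicate 3 lowest. It was between 1.18 and 1.28 in untreated 3KR and between 0.92 and 0.99 in NCS-treated 3KR. The pooled SD within groups was 0.06, and the NCS-treated 3KR libraries lay below the untreated 3KR libraries. The medians of both 3KR groups were above those of both WT groups, but Oas1a, Oas2, Oas3 and Mx1 had to be higher in 3KR. Over the other 35 genes the median fitted log2 fold change of 3KR against WT was 0.99 without treatment and 1.01 after NCS.

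In absolute level the members covered a wide range. Per kilobase of exon and averaged over all 12 libraries, Ifi27 (1508 normalized counts), Bst2 (1080.3), Isg15 (613), Irf3 (494) and Trim25 (376) were the most abundant. Mx1 (5.05), Oas2 (3.79) and Oas3 (1.71) were the least abundant, and Oas2 and Oas3 were close to absent in WT MEFs.

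Promoter sequences were looked at because the ISRE is the element through which ISGF3 is known to act. RefSeq (GRCm38.p6) windows of 250 bases before to 50 bases after the start of transcription were at hand for 29 of the 39 genes. The others were Dhx58, Zbp1, Oas2, Usp18, Mx1, Mx2, Parp9, Parp14, Ifi27 and Rtp4. The ISRE core repeat GAAANNGAA, searched on both strands, was in the window of 15 of the 29 genes (51.7%), against 9.76% of all 27025 genes with a window. With a further A after the core it was in 13 of 29 (44.8%) against 3.99%. The core of the gamma-activated site, TTCNNNGAA, which reads the same on both strands and is known from genes induced by interferon gamma, was in 7 of 29 (24.1%) against 9.55%. The E2F sites TTTCGCGC and TTTGGCGC were in 0 of 29, against 0.374% and 0.585% of all genes. Both sites are so rare that 0 matches in 29 windows cannot show a lack of them. These matches are letters in a window and not measured binding, and no match says only that the letters are absent from it.

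The 180 bases before the start are given for 6 genes that show the range, 5′ to 3′ on the strand of the gene, with capitals marking the core repeat followed by the further A, or its reverse complement. Isg15 (chr4:156200819-156200998, minus strand) held 3 overlapping matches at -78 to -57 from the start, Bst2 (chr8:71537473-71537652, minus strand) 2 overlapping matches at -130 to -115, Ifit1 (chr19:34640709-34640888, plus strand) 2 separate matches on the opposite strand at -104 to -95 and -85 to -76, and Oas3 (chr5:120777660-120777839, minus strand) 1 match at -75 to -66. Oasl2 (chr5:114896754-114896933, plus strand) and Irf7 (chr7:141266425-141266604, minus strand) held none in this window although both were much higher in 3KR.
Isg15: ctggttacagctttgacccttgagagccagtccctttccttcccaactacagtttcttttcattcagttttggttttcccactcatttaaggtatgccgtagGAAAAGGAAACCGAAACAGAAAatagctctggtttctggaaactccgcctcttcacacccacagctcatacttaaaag
Bst2: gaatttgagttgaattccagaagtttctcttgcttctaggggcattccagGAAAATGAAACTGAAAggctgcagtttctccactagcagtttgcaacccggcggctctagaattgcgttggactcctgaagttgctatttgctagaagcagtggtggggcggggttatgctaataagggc
Ifit1: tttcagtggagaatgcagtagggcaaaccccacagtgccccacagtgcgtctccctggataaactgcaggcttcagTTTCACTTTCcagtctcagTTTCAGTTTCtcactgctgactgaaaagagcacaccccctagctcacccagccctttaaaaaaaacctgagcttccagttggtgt
Oas3: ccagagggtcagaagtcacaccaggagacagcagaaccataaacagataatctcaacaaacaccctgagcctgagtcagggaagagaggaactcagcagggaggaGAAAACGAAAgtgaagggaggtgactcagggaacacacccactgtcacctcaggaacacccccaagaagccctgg
Oasl2: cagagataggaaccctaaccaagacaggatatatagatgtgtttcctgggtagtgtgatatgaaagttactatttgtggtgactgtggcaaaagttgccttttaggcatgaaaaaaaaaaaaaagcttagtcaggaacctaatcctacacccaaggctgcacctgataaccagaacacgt
Irf7: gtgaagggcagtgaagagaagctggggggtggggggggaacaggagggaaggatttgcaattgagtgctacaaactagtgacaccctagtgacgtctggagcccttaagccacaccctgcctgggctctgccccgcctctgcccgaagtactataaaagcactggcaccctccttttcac

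The 15 genes whose window held the core repeat had a median log2 fold change of 1.39 between untreated 3KR and WT. That median includes Oas1a and Oas3, which were tested only through the 3KR libraries and so had to differ. Without Oas1a and Oas3, the genes with the core repeat ran from 0.21 (Trim30a) to 2.41 (Ifit1). The 14 genes without the core repeat, all at the testing level in both genotypes, had a median of 0.48. Their range was 0.03 (Irf3) to 2.97 (Oasl2), and the 2 medians do not compare like with like. The ranges overlap widely, and Irf7, Oasl1 and Oasl2 are examples of large differences with no match.

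**Figure D2:**
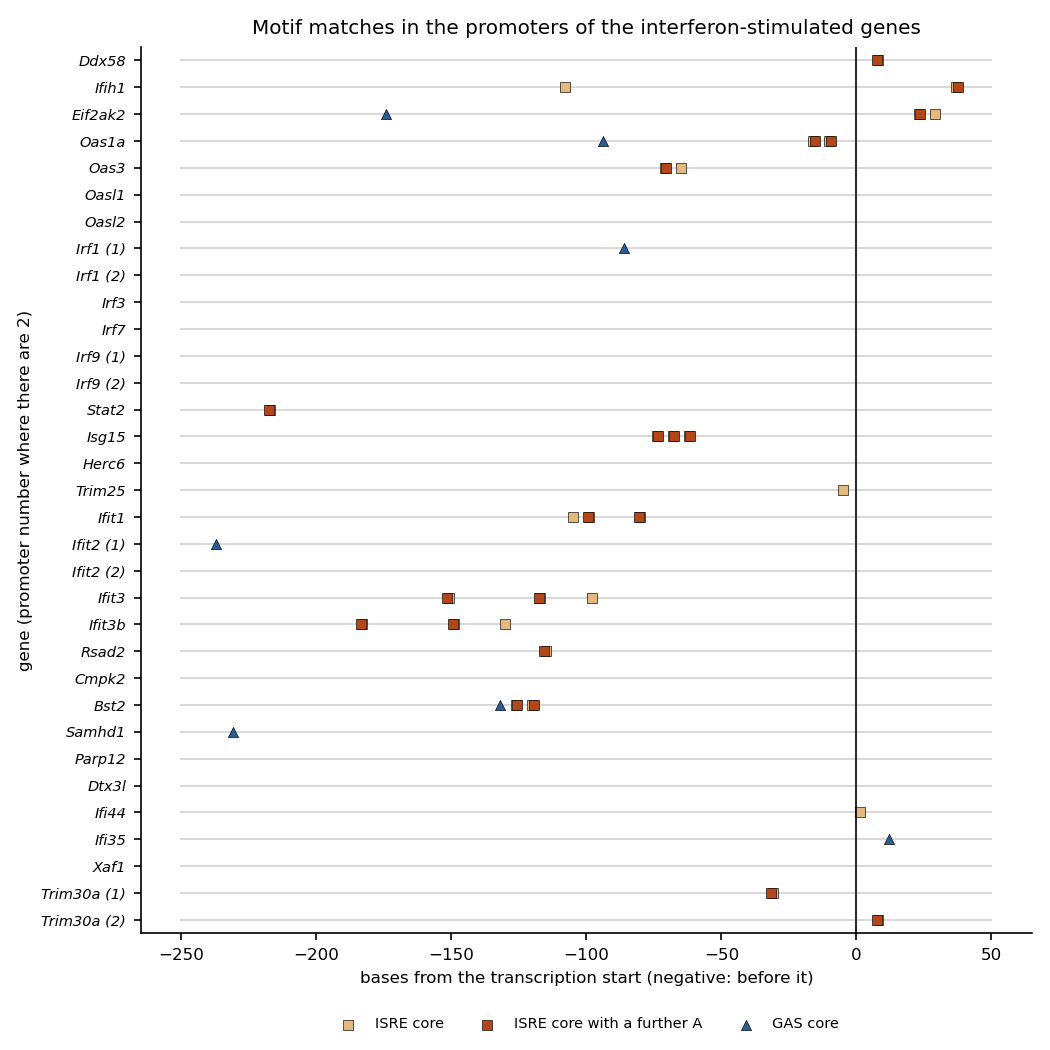
Position of each match to the ISRE core repeat and to the core of the gamma-activated site, in bases from the start of transcription (0). All 29 members with a promoter window are drawn, and a line with no mark is a window without a match. Most matches of the ISRE core lie before the start, Stat2 and Ifit3b hold the most distant ones, and Ddx58, Ifih1, Eif2ak2 and Trim30a hold matches after it.

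All 10 RNA sensors and their enzymes were higher in 3KR than in WT without treatment, with a median log2 fold change of 1.74, but Oas1a, Oas2 and Oas3 were tested only through the 3KR libraries. Of the other 7 sensors 7 were higher, with a median of 0.99. Among the helicases that bind viral double-stranded RNA, Ddx58, which codes for RIG-I, held 923, 894 and 909.7 normalized counts in untreated WT, 695, 807 and 775 in NCS-treated WT, 1426, 1396 and 1430.3 in untreated 3KR and 1089.6, 1139 and 1054 in NCS-treated 3KR MEFs. Both 3KR groups lay above the WT group of the same treatment, and in each genotype the NCS-treated libraries lay below the untreated ones. The difference without treatment was a log2 fold change of 0.63 ± 0.05 SE (FDR 5.48e-10). Ifih1, the gene for MDA5, differed by 1.25 ± 0.12 SE and Dhx58, the gene for LGP2, by 0.93 ± 0.16 SE. Up to 4.31% of the exon bases of Dhx58 lie under a gene on the other strand, and the counting is not stated to use strand, so reads of such pairs cannot be told apart.

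Eif2ak2 codes for PKR, a kinase that stops translation when it binds double-stranded RNA, and was the most abundant gene of this role per kilobase. It stood at 1048, 1191 and 1276 normalized counts in untreated WT, 1448, 1544 and 1465 in NCS-treated WT, 1398, 1435 and 1429 in untreated 3KR and 1663, 1624 and 1571 in NCS-treated 3KR MEFs. The untreated 3KR libraries were above all untreated WT libraries by a small margin (log2 fold change 0.28 ± 0.06 SE, FDR 0.000291), and NCS-treated libraries of either genotype were above the untreated ones. Zbp1, which recognizes Z-form nucleic acids, was higher in 3KR by 0.99 ± 0.20 SE.

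The oligoadenylate synthetases make the small molecule that activates RNase L. Oas2 gave 1.66, 3.04 and 0 normalized counts in untreated WT, 3.08, 8.30 and 1.0 in NCS-treated WT, 33.3, 45.8 and 28.2 in untreated 3KR and 16.2, 26.8 and 35.2 in NCS-treated 3KR MEFs. The WT libraries were at or near the lowest usable level, with at most 9 raw counts each, and no 3KR library held fewer than 16, so no fold is given. Oas3 was similar, at 0 to 5.53 normalized counts over the 6 WT libraries and 10.5 to 28.1 over the 6 3KR libraries. Oas1a, one of several near-identical neighbours between which reads may be split, was at 4.06 to 13.3 in WT and 30.4 to 51.3 in 3KR libraries.

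The OAS-like gene Oasl2 was measured well in both genotypes. It held 24, 33.5 and 39.3 normalized counts in untreated WT, 65.6, 49.8 and 32.8 in NCS-treated WT, 236, 228 and 290.1 in untreated 3KR and 151, 124 and 171 in NCS-treated 3KR MEFs. The lowest untreated 3KR library was several times the highest untreated WT library, NCS-treated 3KR lay between, and the WT groups overlapped each other. The genotype difference without treatment was 7.86-fold (log2 fold change 2.97 ± 0.20 SE, FDR 1.44e-11). Oasl1, its close relative, differed by 2.36 ± 0.30 SE.

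**Figure D3:**
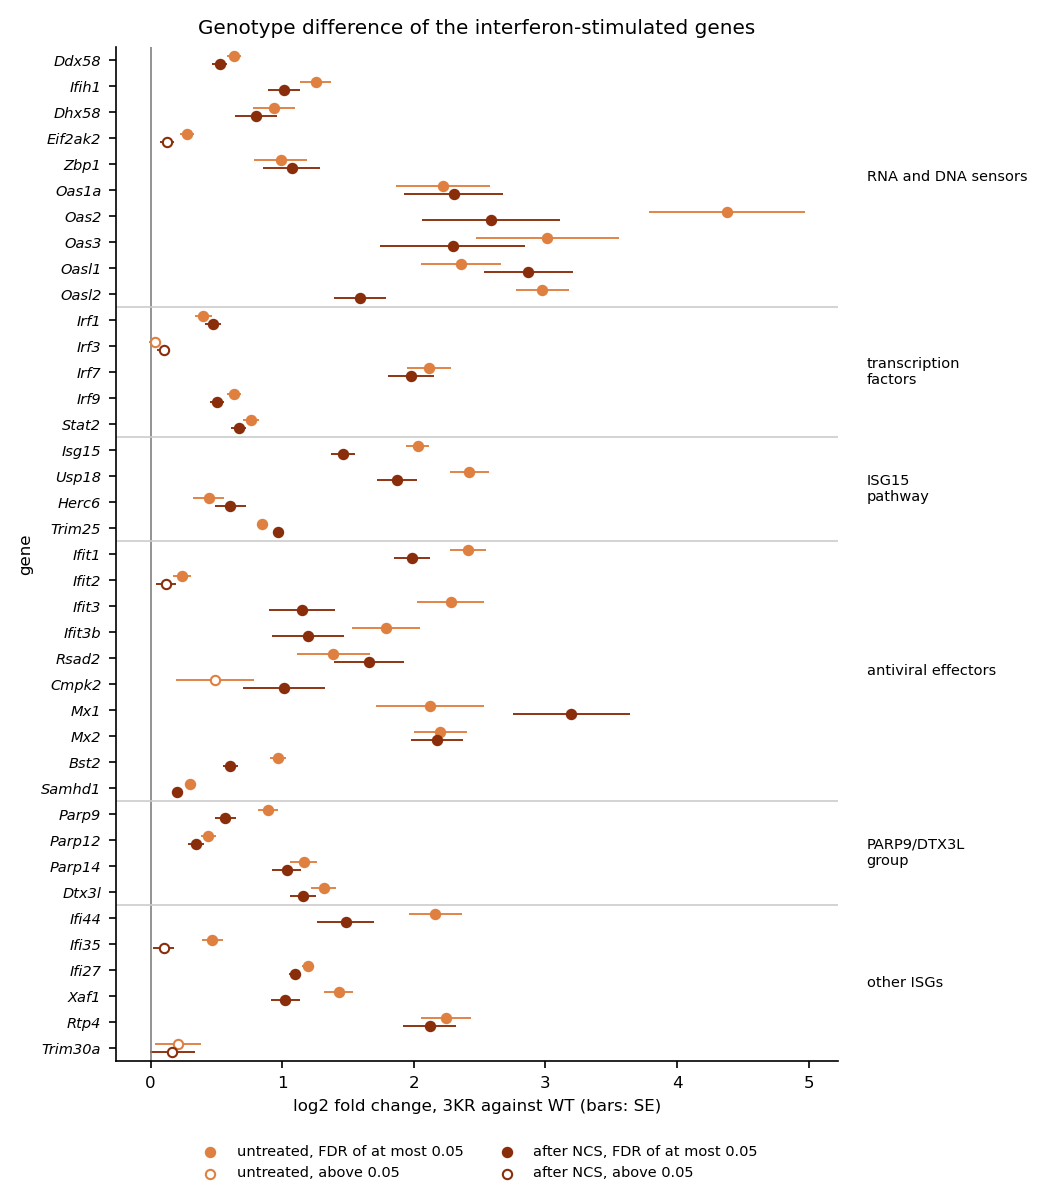
Log2 fold change of 3KR against WT for each of the 39 genes, by role, without treatment and after NCS, with bars of 1 SE from the edgeR fit over all 12 libraries and filled points for an FDR of at most 0.05. Nearly all points lie right of 0 in both treatments, Oasl2, Usp18, Ifit1 and Rtp4 are among the farthest of the genes measured in both genotypes, and Irf3 sits close to 0. The points of Oas1a, Oas2, Oas3 and Mx1 rest on few WT counts.

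Of the 5 transcription factors 4 were higher in untreated 3KR, and the median of all 5 was 0.63 on the log2 scale. Irf7, itself an interferon-stimulated gene and the factor that drives the interferon alpha genes, had 45.6, 56.8 and 73.5 normalized counts in untreated WT, 68.7, 55.3 and 34.8 in NCS-treated WT, 257, 256 and 243 in untreated 3KR and 219.8, 219 and 187 in NCS-treated 3KR MEFs. Every 3KR library was above every WT library, and the WT values were more scattered, with the highest and the lowest both from replicate 3. The difference was 4.32-fold (log2 fold change 2.11 ± 0.17 SE, FDR 2.37e-10). Irf3, the factor that waits in the cytoplasm of resting cells and is activated by phosphorylation, had 1736, 1695 and 1735 normalized counts in untreated WT, 1569, 1491 and 1727 in NCS-treated WT, 1687, 1823 and 1799 in untreated 3KR and 1739, 1687 and 1695 in NCS-treated 3KR MEFs. These 12 values overlapped across all groups (log2 fold change 0.03 ± 0.05 SE, FDR 0.61), and Irf3 was the most abundant of the 5 per kilobase. The remaining factors lay between, with Irf1, an early responder to interferon gamma, at 0.40 ± 0.06 SE, and Irf9 and Stat2, partners in ISGF3, at 0.63 ± 0.05 SE and 0.76 ± 0.06 SE. Exons of Irf1, Irf3 and Irf7 overlap those of a gene on the other strand over 1.19% to 3.40% of their length, and Irf9 shares 2.28% with Rnf31 on its own strand.

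All 4 genes of the ISG15 pathway were higher, with a median of 1.44. ISG15 is a ubiquitin-like protein that is attached to other proteins and is also secreted. Isg15 held 202, 223 and 190.4 normalized counts in untreated WT, 252, 216 and 178 in NCS-treated WT, 871, 827 and 824 in untreated 3KR and 575, 601 and 605 in NCS-treated 3KR MEFs. The 3 untreated 3KR libraries were the highest, NCS-treated 3KR came next, and all WT libraries were lower and overlapped between treatments. Without treatment the difference was 4.08-fold (log2 fold change 2.03 ± 0.09 SE, FDR 3.2e-15).

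Usp18, the protease that removes ISG15 and a brake on the interferon receptor, showed the same order. Its values were 40.6, 42.6 and 45.5 normalized counts in untreated WT, 52.3, 46.1 and 35.8 in NCS-treated WT, 207, 236 and 249 in untreated 3KR and 162, 173 and 157 in NCS-treated 3KR MEFs. The genotypes did not overlap in either treatment, and the untreated difference was 5.36-fold (log2 fold change 2.42 ± 0.15 SE, FDR 1.85e-12). Trim25, a ubiquitin ligase that acts on RIG-I, was an abundant gene with little spread. It held 1651, 1610.0 and 1575 normalized counts in untreated WT, 1388, 1451 and 1337 in NCS-treated WT, 2891, 2958 and 2902 in untreated 3KR and 2672, 2719 and 2789 in NCS-treated 3KR MEFs. Every 3KR library was above every WT library (log2 fold change 0.85 ± 0.04 SE, FDR 1.48e-14). Herc6, the mouse ligase for ISG15, differed by 0.44 ± 0.12 SE.

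**Figure D4:**
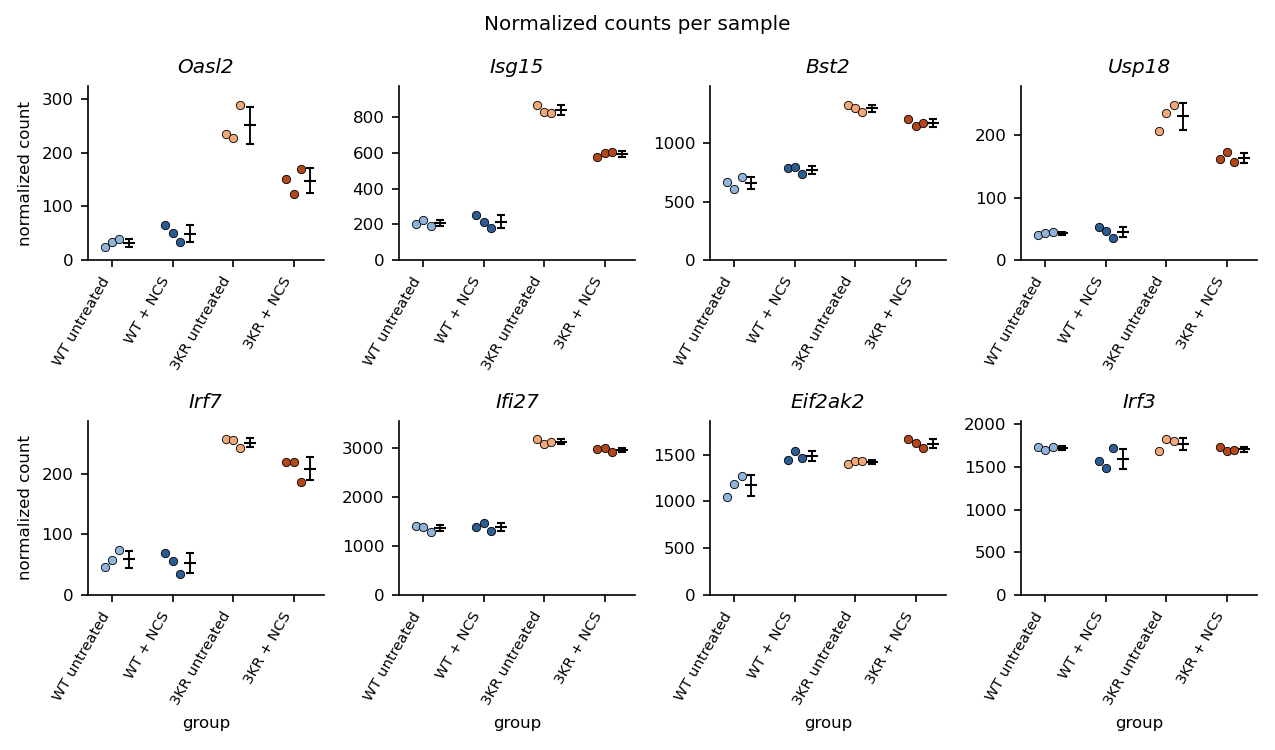
Normalized counts of Oasl2, Isg15, Bst2, Usp18, Irf7, Ifi27, Eif2ak2 and Irf3 in each of the 12 libraries, with a line at the mean of each group of 3. Each panel has its own axis starting at 0. In Oasl2, Isg15 and Usp18 the untreated 3KR points are the highest and the NCS-treated 3KR points lie between them and WT, while in Irf3 all groups overlap.

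Of the 10 antiviral effectors 9 were higher, with a median of 1.59, and without Mx1 8 of 9, with a median of 1.39. Ifit1, which binds foreign RNA by its unusual ends, had 67.1, 65.9 and 82.8 normalized counts in untreated WT, 94.3, 94 and 55.7 in NCS-treated WT, 359.8, 397 and 395 in untreated 3KR and 322, 306 and 341 in NCS-treated 3KR MEFs. The genotypes were well apart, and the difference without treatment was 5.33-fold (log2 fold change 2.41 ± 0.14 SE, FDR 5.66e-13). Ifit3 and its near-identical copy Ifit3b, whose reads may be split or shared, differed by 2.28 ± 0.25 SE and 1.79 ± 0.26 SE. Ifit2 was already high in WT MEFs, at 545 ± 21.3 normalized counts (SD, n = 3), and differed by only 0.24 ± 0.07 SE.

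Bst2, which codes for tetherin, the membrane protein that holds budding virus on the cell surface, was the most abundant effector per kilobase. Its libraries held 669, 605 and 707 normalized counts in untreated WT, 785, 797 and 732 in NCS-treated WT, 1329, 1297 and 1264 in untreated 3KR and 1208, 1142 and 1171 in NCS-treated 3KR MEFs. The 3KR libraries were all above the WT libraries, and NCS-treated libraries were above the untreated ones in WT and below them in 3KR. The untreated difference was 1.96-fold (log2 fold change 0.97 ± 0.06 SE, FDR 1.28e-12). Mx1, the gene of a dynamin-like GTPase that traps viral components, and its relative Mx2, which GENCODE annotates as a polymorphic pseudogene, stood at 6.62 ± 4.54 and 20.6 ± 1.87 in untreated WT against 29.4 ± 3.83 and 95.5 ± 11.1 in untreated 3KR (SD, n = 3). Rsad2, the gene for viperin, differed by 1.39 ± 0.28 SE, whereas its neighbour Cmpk2, a mitochondrial nucleotide kinase, did not pass the test (log2 fold change 0.49 ± 0.30 SE, FDR 0.186). Samhd1, which breaks down the nucleotides that reverse transcription needs, was high throughout and differed by 0.30 ± 0.03 SE.

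The 4 genes of the PARP and DTX3L group were all higher, with a median of 1.03. Parp12 was the most abundant of them per kilobase and held 737, 736 and 718 normalized counts in untreated WT, 780.1, 762 and 671 in NCS-treated WT, 987, 991 and 1001 in untreated 3KR and 928, 911 and 973 in NCS-treated 3KR MEFs. The genotypes were separate in both treatments by a small margin (log2 fold change 0.44 ± 0.06 SE, FDR 1.02e-06). Dtx3l, a ubiquitin ligase that works as a pair with PARP9, had 161, 205 and 186 normalized counts in untreated WT, 159, 171 and 158 in NCS-treated WT, 444, 467 and 461 in untreated 3KR and 364, 401 and 328 in NCS-treated 3KR MEFs. The untreated 3KR libraries were the highest of all and WT libraries the lowest (log2 fold change 1.32 ± 0.10 SE, FDR 5.23e-11). Its partner Parp9 differed by 0.89 ± 0.08 SE. The 2 genes share 458 exon bases on opposite strands, 8.0% of Dtx3l and 9.40% of Parp9, so their values are not fully separate. Parp14, a mono-ADP-ribosyltransferase, held 195, 191 and 217 normalized counts in untreated WT, 175, 136 and 148 in NCS-treated WT, 444, 419 and 487 in untreated 3KR and 309.9, 348 and 284 in NCS-treated 3KR MEFs. Both genotypes were lower after NCS, and both 3KR groups were above both WT groups (log2 fold change 1.16 ± 0.10 SE, FDR 1.1e-09).

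Of the 6 remaining genes 5 were higher, with a median of 1.31. Ifi27, a small mitochondrial protein gene and the most abundant of all 39 per kilobase, had 1415, 1379 and 1293 normalized counts in untreated WT, 1378, 1471 and 1313 in NCS-treated WT, 3178, 3080.5 and 3129 in untreated 3KR and 2981, 3007 and 2925 in NCS-treated 3KR MEFs. Its groups differed between genotypes with little spread, 2.29-fold without treatment (log2 fold change 1.19 ± 0.04 SE, FDR 1.64e-16). Ifi27l2a, a relative that has also carried the name Ifi27, was at 0.829 to 3.10 normalized counts in WT and 27.2 to 43.2 in 3KR libraries. Rtp4, a chaperone of membrane receptors induced by interferon, held 45.6, 33.5 and 31 normalized counts in untreated WT, 39, 45.2 and 19.9 in NCS-treated WT, 179, 168 and 185 in untreated 3KR and 164, 156 and 135 in NCS-treated 3KR MEFs. Every 3KR library was above every WT library (log2 fold change 2.25 ± 0.19 SE, FDR 8.26e-10). Ifi44 and Xaf1 differed by 2.16 ± 0.20 SE and 1.43 ± 0.11 SE. Ifi35 differed by 0.47 ± 0.08 SE, and 16.8% of its exon bases lie under a gene on the other strand. Trim30a, a member of a cluster of similar genes, overlapped between the genotypes (log2 fold change 0.21 ± 0.17 SE, FDR 0.351).

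After NCS, 34 of the 39 genes were higher in 3KR than in WT MEFs and 0 were lower, where 22.9% and 23.6% of all tested genes were. The median log2 fold change was 1.03. In 35 of 39 genes every NCS-treated 3KR library was above every NCS-treated WT library, against 27.0% of all tested genes. Irf3, Ifit2, Eif2ak2, Ifi35 and Trim30a did not pass the test. Oasl1 and Cmpk2 reached the testing level in untreated WT but not in NCS-treated WT, and count here as tested through both genotypes. Of the 35 genes tested through both genotypes 30 were higher, with a median of 1.01. The same NCS-treated libraries held 16 of 20 macrophage markers higher in 3KR, with a median of 0.99, and 7 of 10 fibroblast markers higher and 2 lower, with a median of 0.22. Their part in these levels was not tested.

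By role, the median log2 fold change after NCS was 1.33 for the sensors (9 of 10 higher), 0.51 for the factors (4 of 5), 1.22 for the ISG15 pathway (4 of 4), 1.17 for the effectors (9 of 10), 0.80 for the PARP and DTX3L group (4 of 4) and 1.06 for the others (4 of 6). Over the members at the testing level in both genotypes it was 1.01 for the sensors (6 of 7) and 1.15 for the effectors (8 of 9). Usp18 was 3.66-fold higher in NCS-treated 3KR (log2 fold change 1.87 ± 0.15 SE, FDR 4.85e-10), Isg15 2.76-fold (log2 fold change 1.46 ± 0.09 SE, FDR 3.54e-12) and Ifi27 2.14-fold (log2 fold change 1.10 ± 0.04 SE, FDR 1.15e-15). Mx1, tested only through the 3KR libraries, had WT libraries at 2.05 to 5.53 normalized counts and 3KR libraries at 26.8 to 44.5. Cmpk2 passed the test after NCS (log2 fold change 1.01 ± 0.31 SE, FDR 0.0106), with its lowest WT value, 9.95, in replicate 3, and the call was lost without that library (FDR 0.0663) and without 3KR NCS replicate 3 (FDR 0.0624). Irf3 passed the test, by 0.16, only without WT NCS replicate 3 (FDR 0.00666) or without WT replicate 3 in both treatments, and Ifit2, by 0.20, without WT NCS replicate 2 (FDR 0.0364). Eif2ak2 (log2 fold change 0.12 ± 0.06 SE, FDR 0.0716) passed in 6 of 20 alternatives, among them those without untreated WT replicate 1 (FDR 0.0331) or replicate 3 (FDR 0.0311).

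In WT MEFs NCS changed no larger a share of these 39 genes than of all tested genes. By edgeR's test 4 rose, where 14.3% of all tested genes did, and 3 fell, where 12.4% did, and the median log2 fold change was 0.02. Those that rose were Ifi35 (0.37 ± 0.08 SE), Eif2ak2 (0.34 ± 0.06 SE), Bst2 (0.22 ± 0.06 SE) and Irf1 (0.20 ± 0.06 SE). Those that fell were Parp14 (-0.40 ± 0.11 SE), Ddx58 (-0.26 ± 0.06 SE) and Trim25 (-0.22 ± 0.04 SE). All NCS-treated libraries lay below all untreated ones in 4 of 39 genes, against 16.5% of tested genes. With the replicate number as a block, 5 rose and 5 fell, where 18.5% and 15.7% of all tested genes did. Same-numbered WT libraries did deviate together across genes, but whether they were paired was not shown. Oasl2 joined those that rose (0.62), and Irf3 (-0.12) and Ifit2 (-0.18) joined those that fell. Without the block Oasl2 did not pass (log2 fold change 0.63 ± 0.25 SE, FDR 0.0712). The call of Irf1 was lost without untreated WT replicate 2, WT NCS replicate 1 or WT NCS replicate 2, that of Bst2 without untreated WT replicate 2, and that of Parp14 without WT NCS replicate 2 or without WT replicate 3 in both treatments.

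In 3KR MEFs the response ran mostly downward, with 14 genes lower and 2 higher after NCS, against 15.0% and 15.8% of all tested genes. The median log2 fold change was -0.16. In 22 of 39 genes all NCS-treated libraries lay below all untreated ones, against 23.6% of tested genes. Oasl2 (log2 fold change -0.76 ± 0.16 SE, FDR 0.000882), Ifi44 (log2 fold change -0.73 ± 0.18 SE, FDR 0.00252) and Ifit3 (log2 fold change -0.58 ± 0.21 SE, FDR 0.0432) fell, though Ifit3 moved to -0.31 (FDR 0.267) without NCS replicate 3. The ISG15 pathway contributed Isg15 (log2 fold change -0.50 ± 0.08 SE, FDR 2.39e-05) and Usp18 (log2 fold change -0.49 ± 0.12 SE, FDR 0.00334). Parp14 (-0.52 ± 0.10 SE), Dtx3l (-0.33 ± 0.09 SE) and Parp9 (-0.25 ± 0.08 SE) fell, and so did Ddx58 (-0.37 ± 0.05 SE), Ifit2 (-0.29 ± 0.07 SE), Xaf1 (-0.28 ± 0.10 SE) and Samhd1 (-0.16 ± 0.03 SE). The ISGF3 partners Stat2 (-0.23 ± 0.06 SE) and Irf9 (-0.14 ± 0.05 SE) fell slightly. Irf1 (0.28 ± 0.06 SE) and Eif2ak2 (0.19 ± 0.06 SE) rose. By the Wald test of DESeq2, Ifit3 (FDR 0.0744), Xaf1 (FDR 0.0673) and Irf9 (FDR 0.0656) did not pass, nor did Irf9 with no filter on low counts (FDR 0.068). Leaving out 1 library ended some of these calls, with FDR of 0.0526 to 0.267 and the direction kept. Irf9 was lost without any 1 of the 3KR libraries except NCS replicate 1, Xaf1 without any except NCS replicate 1 and untreated replicate 3, and Ifit3 without untreated replicate 1, untreated replicate 2 or NCS replicate 3. Parp9 was lost without untreated replicate 2 or NCS replicate 1, Dtx3l without NCS replicate 3 and Eif2ak2 without NCS replicate 1. The summed macrophage markers of these libraries were 287 to 293 CPM against 324 to 329 CPM without NCS, and 3 of the 20 fell, with a median of -0.14. Of the 10 fibroblast markers 6 fell and 1 rose, with a median of -0.10. The part of these cells in the falls was not tested.

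**Figure D5:**
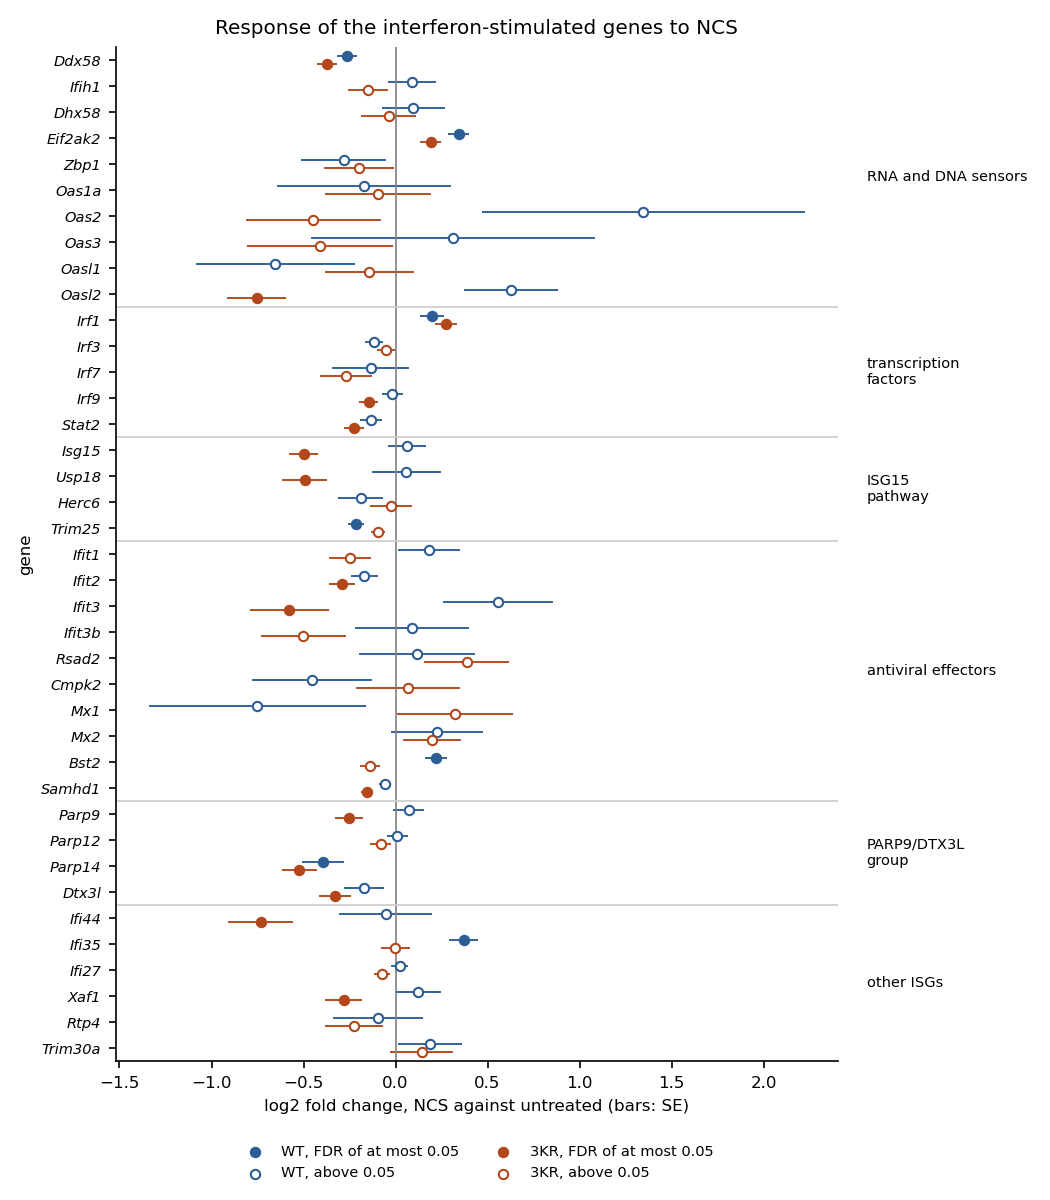
Log2 fold change of NCS-treated against untreated MEFs for each of the 39 genes, in WT and in 3KR, with bars of 1 SE from the edgeR fit over all 12 libraries and filled points for an FDR of at most 0.05. WT points scatter around 0, and most 3KR points lie left of it, with Oasl2 and Ifi44 among the farthest of the filled ones. Irf1 and Eif2ak2 lie right of 0 in both genotypes.

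Whether NCS acted unequally in WT and 3KR was tested with an interaction term, where 1.86% of all genes had a higher and 1.87% a lower response in 3KR than in WT. Of the 39 genes 0 were higher and 3 were lower, with a median difference of -0.13. Oasl2 had a fitted log2 response to NCS of 0.63 in WT and -0.76 in 3KR, a difference of -1.38 ± 0.30 SE (FDR 0.009). Isg15 responded by 0.06 in WT and -0.50 in 3KR, a difference of -0.56 ± 0.13 SE (FDR 0.0134). Bst2 responded by 0.22 and -0.14, a difference of -0.36 ± 0.08 SE (FDR 0.012). The calls of Oasl2 (FDR 0.0546) and Isg15 (FDR 0.067) were lost without WT NCS replicate 1, and that of Bst2 remained in all 19 alternatives run. With the replicate number within each genotype as a block 5 genes passed, Ifit3 (-1.17, FDR 0.0196) and Ifi35 (-0.38, FDR 0.0159) being added. With that block 4.1% of all tested genes had a lower and 4.9% a higher response. Without WT replicate 3 in both treatments 9 genes passed, Eif2ak2, Ifit1, Ifit3, Ifi44, Ifi35 and Xaf1 being added, and all 9 had the lower response in 3KR, where 5.82% of all tested genes had a lower and 6.01% a higher one. With all 12 libraries and no block, 5 of 10 fibroblast markers (median -0.10) and 2 of 20 macrophage markers (median -0.22) also had a lower response in 3KR and 0 of either a higher one, and their part in the result was not tested. For the other genes that fell in 3KR, a difference from the WT response was not shown.

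The genes around the list were read from the same fits. Of the ligands, 11 interferon genes could be matched, and none held more than 1 count in any library. No identifier was matched for Ifna1, Ifna5, Ifna6, Ifna7, Ifna9, Ifna11, Ifna14, Ifna15, Ifnab and Ifnz, so these were not examined. Ifnb1, the interferon beta gene, held 0 counts in all 12 libraries, and single counts of Ifne and Ifnk, named after their values were seen, were the others. A count of 0 allows a level of up to 0.0663 to 0.0904 CPM in these libraries, for counting error only. Of the 6 receptor genes 1 was higher and 2 were lower in untreated 3KR, where 22.1% of all tested genes were higher and 23.6% lower. Type I receptor chains Ifnar1 (log2 fold change -0.00 ± 0.04 SE, FDR 0.994) and Ifnar2 (log2 fold change 0.08 ± 0.05 SE, FDR 0.232) did not pass, and of the interferon gamma receptor chains, Ifngr1 was higher (0.31 ± 0.05 SE) and Ifngr2 lower (-0.61 ± 0.04 SE).

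Of 12 JAK-STAT genes and their inhibitors 7 were higher and 2 lower in untreated 3KR, with a median of 0.18. In that comparison 22.1% of all tested genes were higher and 23.6% lower. The inhibitor Socs3 was higher by 0.65 ± 0.04 SE and the kinase Jak1 by 0.24 ± 0.03 SE, while Tyk2 did not pass (log2 fold change 0.03 ± 0.05 SE, FDR 0.683). Of 28 tested upstream sensors and adaptors 15 were higher and 1 lower, with a median of 0.28. Sting1, the adaptor of DNA sensing, was higher by 0.65 ± 0.05 SE, the DNA sensor Cgas by 0.44 ± 0.09 SE and the antiviral zinc finger gene Zc3hav1 by 0.72 ± 0.04 SE. The 1 lower gene was Mavs. Its call was lost by the Wald test of DESeq2 (log2 fold change -0.15, FDR 0.05355) and without some single libraries. After NCS, 1 receptor gene was higher and 1 lower, and 6 JAK-STAT genes were higher and 2 lower. Among the upstream genes 12 were higher and 1 lower. Of all tested genes 22.9% were higher and 23.6% lower after NCS.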

How the data were processed

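RNA-seq libraries were made by the authors from total RNA with the TruSeq Stranded mRNA kit. Per the labels, reads were processed with TopHat, HTSeq and DESeq on mm9, with versions, annotation release and strand setting not given in the sources used here. What the authors deposited are raw counts, whole numbers of reads per Ensembl gene and sample with no normalization. Symbols and exon lengths came from GENCODE M21, and promoter windows came from RefSeq (GRCm38.p6), so no gene coordinates in mm9 are given.

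Groups came from the sample labels. Genes were filtered with filterByExpr (minimum count of 10, minimum total of 15) and scaled by TMM, and the quasi-likelihood test of edgeR 4.0.16 (R 4.3.3) was run with all 12 samples in 4 group coefficients, two-sided p-values and Benjamini-Hochberg adjustment over 15327 genes at 0.05. Standard errors were the log2 fold change divided by the square root of F. Normalized counts used the size factors of DESeq2 1.42.0. The fits were tested on simulated data with known genotype differences and none for NCS, so recovery of NCS effects was not tested. The simulated spread was the same for all genes, with no library set apart. Median depth was 37623686 counts, and intervals and limits cover counting error only.

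The members, their roles and the other lists were chosen with earlier results of these data known. Values in every sample are given, within each role, for the member with the highest level per kilobase and the member with the largest untreated genotype difference. They are also given for members called for the difference in response and for the 3 with the lowest p for NCS in each genotype. The lists around the members were interferon ligands, receptors, JAK-STAT genes, upstream sensors and adaptors, and markers of fibroblasts, macrophages, lymphoid cells, plasmacytoid dendritic cells and endothelium (4.82 to 6.59 CPM in sum). Alternatives were DESeq2 size factors, its Wald test, no filter, a minimum of 10 counts in all libraries and fits limited to the groups compared. Further ones were the replicate number as a block, each sample left out, and WT replicate 3 left out of both treatments. For NCS and the difference in response the block was the replicate number within each genotype, so 3KR libraries were blocked as well. Counting only members at the filter level in both genotypes, and repeating the alternatives for the other lists, were chosen after seeing the data. Results for 1 gene of the JAK-STAT list are not reported here.

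The replicate numbers were checked by the correlation, over 11758 genes, of deviations from the group mean. Same-numbered untreated and NCS libraries gave 0.141, 0.136 and 0.325 in WT and -0.01, 0.01 and -0.09 in 3KR. WT replicate 3 stood apart in both treatments, which by itself can make all 3 WT values positive. Libraries with different numbers were not compared, so the check cannot show that the numbers pair the WT libraries.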

Additional observations from a re-analysis of the deposited data

Results flagged for a closer look

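The response to NCS differed between the genotypes by a test of the difference itself (interaction term, edgeR) for 3 of the 39 genes. In each case the response was lower in 3KR than in WT MEFs, as it was for 1.87% of all tested genes. The difference in log2 response was -1.38 for Oasl2 (FDR 0.009), -0.56 for Isg15 (FDR 0.0134) and -0.36 for Bst2 (FDR 0.012). Without WT NCS replicate 1 the interaction calls of Oasl2 (FDR 0.0546) and Isg15 (FDR 0.067) were lost. Oasl2 and Isg15 fell in 3KR, and their changes in WT missed the threshold (FDR 0.0712 and 0.712), though Oasl2 in WT passed in 6 of 20 alternatives, among them the replicate block (FDR 0.0383). Bst2 rose in WT, and its change in 3KR missed the threshold (log2 fold change -0.14 ± 0.05 SE, FDR 0.0553), though it passed in 6 of 20 alternatives, among them the replicate block (FDR 0.0334). The causes were not tested.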

How the results depend on the processing

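No called change of a member turned direction under an alternative, whereas the fitted sign of uncalled changes differed under at least 1 alternative for 16 genes for NCS in WT, 6 for NCS in 3KR and 7 for the difference in response. The count of genes higher in untreated 3KR stayed at 31 to 36 and that after NCS at 30 to 35, with 0 lower throughout, and the ratio of untreated 3KR to WT was above 1 for 39 of 39 genes under all 3 scalings. The median in the untreated comparison moved to 0.97 with at least 10 counts in every sample (34 genes left) and to 0.99 over the 35 genes at the filter level in both genotypes. Leaving out 1 library gave medians of 1.03 to 1.10 for the genotypes after NCS, -0.22 to -0.15 for NCS in 3KR, counts of 2 to 5 rising with NCS in WT, 1 to 2 rising in 3KR and 1 to 5 with a lower response in 3KR. The lowest of these counts came without untreated WT replicate 2, 3KR NCS replicate 1 and WT NCS replicate 1, in that order. Over the same fits 11.1% to 16.1% of all tested genes rose in WT and 12.5% to 17.8% in 3KR. A lower response in 3KR was found for 1.18% to 3.88% of all. With only the samples compared, 2 genes rose with NCS in WT, where 9.89% of all tested genes did. With the replicate block, 5 fell with NCS in WT, where 15.7% of all tested genes fell. Also with the block 5 had a lower response in 3KR, where 4.1% of all had one. The block moved no other count by over 1.5 times. With no filter on low counts 5 had a lower response, where 1.64% of all tested genes had one. Without WT replicate 3 in both treatments 9 had one, with a median difference of -0.19, while the share of all genes with one went from 1.87% to 5.82%. The count falling with NCS in 3KR ran from 10 to 19, while the share of all tested genes falling ran from 9.62% to 20.5%. The causes were not tested. Depth limits what can be said of Oas2, Oas3 and the interferon genes, whose WT libraries lay at or near 3 counts. In the 250 bases before the start alone, the ISRE core was in 41.4% of the 29 promoters and 8.18% of all.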
